A study of Mus musculus with 2 samples.

Results

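*Rin2* and *Stox2* were examined by scRNA-seq of whole testes at postnatal day (PD) 7, with 1 control library and 1 *Brca1* vKO library. The *Brca1* vKO genotype is *Brca1* f/- *Vasa-Cre*: one *Brca1* allele is null in every cell, and the floxed allele is deleted by a Cre transgene that acts in germ cells from the fetal gonocyte stage onward. Somatic cells of these mice thus also carry a null allele, and the control, a littermate, is not described further in the labels. The 2 genes were selected because their unique molecular identifiers (UMIs, each counting 1 captured RNA molecule) were fewer in the germ cells of the *Brca1* vKO library. Their lower level there is therefore a description of how they were selected and was not tested, and they are 2 of 32285 genes in the tables. With 1 library per genotype no test between genotypes was possible, and the 95% intervals (exact Poisson for levels, exact conditional for ratios, Clopper-Pearson for shares) cover counting error only, not variation between mice.

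RIN2 belongs to the RAS and RAB interactor family, whose VPS9 domain activates the small GTPase RAB5 on early endosomes. STOX2 is a storkhead-box protein with a winged-helix DNA-binding domain. In the young testis, spermatogonial stem cells carry the GDNF receptor made of GFRA1 and RET, progenitor spermatogonia carry the transcription factor SOX3 and lose GFRA1, and differentiating spermatogonia carry the receptor KIT. The members were followed along these markers in single germ cells, to see whether they mark a state that the mutant library lacks.

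By GENCODE annotation of GRCm38 (mm10), *Rin2* (ENSMUSG00000001768) spans bases 145675215 to 145887616 of chromosome 2, plus strand. *Stox2* (ENSMUSG00000038143) spans bases 47180048 to 47446362 of chromosome 8, minus strand. Each gene body overlaps a pair of other annotated genes, Gm11763 and Gm25026 for *Rin2*, and Gm45537 and Gm22857 for *Stox2*. The RefSeq promoter windows, 250 bases before to 50 bases after the annotated start (GRCm38.p6), are printed because the 2 genes were high in the same control cells. For *Rin2* the window is chr2:145785866-145786165 on the plus strand, and for *Stox2* it is chr8:47352299-47352598 on the minus strand. Both starts lie inside the GENCODE gene, so that transcripts with other starts are not covered. Capitals mark ACAAAG, a core motif of SOX factors, searched on both strands together with ACAATG.
Rin2: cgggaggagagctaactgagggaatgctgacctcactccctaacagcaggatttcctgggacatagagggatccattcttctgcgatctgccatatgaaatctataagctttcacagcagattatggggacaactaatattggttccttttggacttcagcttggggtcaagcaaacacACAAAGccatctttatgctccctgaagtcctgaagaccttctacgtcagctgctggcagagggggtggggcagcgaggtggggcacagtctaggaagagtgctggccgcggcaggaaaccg
Stox2: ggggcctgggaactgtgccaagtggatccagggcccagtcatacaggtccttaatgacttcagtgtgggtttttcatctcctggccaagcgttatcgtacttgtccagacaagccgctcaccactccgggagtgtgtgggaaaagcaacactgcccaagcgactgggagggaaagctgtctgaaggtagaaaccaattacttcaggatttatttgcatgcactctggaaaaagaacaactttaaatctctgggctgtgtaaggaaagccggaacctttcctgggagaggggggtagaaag
The *Rin2* window held 1 ACAAAG, which begins 71 bases before the start, and the *Stox2* window held 0. ACAAAG was present in 18.7% of the 32851 promoter windows of the table, and ACAATG, absent from both windows, in 12.6%. The E-box CAGCTG was found in the *Rin2* window 1 time and in 16.3% of all windows, and CACGTG in neither window and in 7.15% of all. The 2 matches in the *Rin2* window did not overlap. The G and C content was 52.3% for *Rin2* and 51.0% for *Stox2*, with 7 and 6 CG dinucleotides.

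Germ cells were the cells with at least 10000 UMIs and at least 3 UMIs of the germ cell genes *Ddx4* and *Dazl* per 10000 UMIs. They numbered 716 of 5077 control cells (14.1%) and 228 of 8712 *Brca1* vKO cells (2.62%). Few cells lay near the limit: 9 control and 2 vKO cells between 2 and 3 per 10000, and 11 and 2 between 3 and 4. The median depth of germ cells was 44839.5 UMIs in the control and 36959.5 in the vKO library. *Brca1* itself had 71.3 UMIs per 1000000 (CPM) in control and 44.2 in vKO germ cells, a ratio of 0.620 (0.556 to 0.689). The counts do not separate deleted from intact transcripts. The libraries shared 21 barcodes, none of them a germ cell. The 10 handling stress genes had a median of 8.58 UMIs per 10000 in control and 13.3 in vKO germ cells. In total, 124 control and 32 vKO germ cells were doublet-like, either marked by Scrublet or with at least 5 UMIs of Sertoli, stromal and myoid markers per 10000. All 4 Sertoli markers were detected in the germ cell sums of both libraries, from 19.5 (*Amhr2*) to 168 CPM (*Clu*) in the control and from 14.0 to 136 in vKO. Since Sertoli-like cells carried much *Rin2*, values are given for all germ cells and for the 592 control and 196 vKO cells that were not doublet-like, called singlets here. The singlet set was added after the first results were seen.

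In all germ cells, *Rin2* had 2290 UMIs in the control, or 67.6 CPM, and 150 UMIs in vKO, or 16.6 CPM. The ratio was 0.245 (0.206 to 0.289). *Stox2* had 3932 UMIs (116 CPM) and 272 UMIs (30.0 CPM), a ratio of 0.259 (0.228 to 0.293). These values describe the contrast by which the members were selected, and nothing is read from them. Of 15064 genes with at least 50 UMIs, 75 (0.498%) were at least 2-fold lower in vKO on the scale of log2(CPM + 10), and both members, having been selected on this contrast, were among them. Without the doublet-like cells the *Rin2* count in vKO fell from 150 to 68 UMIs, so that the 32 doublet-like cells had carried 82 UMIs. The singlet levels were 70.0 and 9.14 CPM for *Rin2*, a ratio of 0.131 (0.101 to 0.166), and 123 and 25.7 CPM for *Stox2*, a ratio of 0.209 (0.179 to 0.241). Among singlets 94 of 14185 genes (0.663%) were at least 2-fold lower and 0.931% at least 2-fold higher.

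To place the members along the spermatogonial markers, germ cells were divided by *Gfra1* and *Kit* at 1 UMI per 10000. The Gfra1 class had *Gfra1* alone at or above this limit, the Kit class had *Kit* alone, the double-high class had both and the double-low class had neither. The double-low class was richer in *Sox3* than the Gfra1 class: control singlets had 68.4 CPM of *Sox3*, against 14.8 in the Gfra1 class. *Sox3* did not set it apart from the Kit class, which had 66.3 CPM (60.2 to 73.0). Both members were highest in the double-low class of the control library. Among control singlets *Rin2* had 48.8 CPM in the Gfra1 class (44.8 to 53.2), 136 in the double-low class (129 to 143) and 4.11 in the Kit class (2.68 to 6.02). *Stox2* had 93.8 CPM (88.1 to 99.8), 213 (204 to 222) and 34.9 (30.5 to 39.8) in the same classes. For each gene the 3 control classes did not overlap in their counting intervals. These intervals are narrow because UMIs are summed over many cells, and they leave out the spread between cells. How many other genes would also separate in this way was not counted. *Rin2* thus nearly vanished from control cells with *Kit*, while *Stox2* stayed detectable in them.

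Among singlets of the *Brca1* vKO library the double-low class did not stand out beyond counting error. *Rin2* had 9.22 CPM in vKO singlets of the Gfra1 class (54 UMIs in 152 cells) and 17.2 CPM in the double-low class (12 UMIs in 25 cells), with overlapping intervals of 6.93 to 12.0 and 8.87 to 30.0. *Stox2* had 26.5 CPM (155 UMIs) and 17.2 CPM (12 UMIs), with intervals of 22.5 to 31.0 and 8.87 to 30.0. The vKO to control ratio of *Rin2* was 0.189 (0.140 to 0.2501) in the Gfra1 class and 0.126 (0.0650 to 0.221) in the double-low class. For *Stox2* it was 0.282 (0.237 to 0.334) and 0.0807 (0.0416 to 0.141). *Sox3* itself had a ratio of 0.484 (0.336 to 0.684) and 0.251 (0.129 to 0.441) in these classes. *Gfra1* and *Ret* were close to the control within the Gfra1 class, at 0.946 (0.898 to 0.996) and 0.949 (0.868 to 1.04). *Kit* was not, at 9.20 CPM in control and 27.3 in vKO singlets of that class, a ratio of 2.97 (2.30 to 3.85), so that the class differed between the libraries in a marker along which the members fell in the control. Among all germ cells the ratios within the Gfra1 class were 0.292 for *Rin2* and 0.303 for *Stox2*, and within the double-low class 0.318 and 0.217. With the doublet-like cells, *Rin2* in vKO was also higher in the double-low class (38.8 CPM, 28.8 to 51.1) than in the Gfra1 class (14.3 CPM, 11.6 to 17.4), and the 12 doublet-like double-low cells held 38 of its 50 UMIs. In the Gfra1 class singlets 0.419% of 12182 genes were at least 2-fold lower and 0.607% at least 2-fold higher, and in the double-low class 1.79% and 1.65% of 11018 genes. Only 4 vKO singlets fell in the Kit class, with 0 *Rin2* and 4 *Stox2* UMIs, too few to place the members there.

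**Figure D1:**
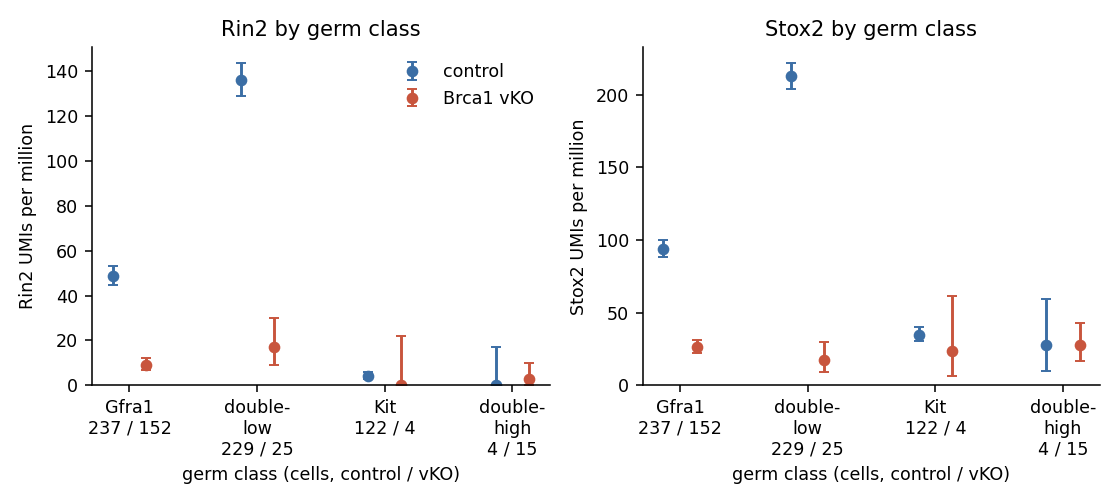
CPM of *Rin2* (left) and *Stox2* (right) in singlet germ cells by class, with the number of control and *Brca1* vKO cells under each class and bars for the 95% Poisson interval. The control double-low class stands highest at 136 and 213 CPM, and the vKO points of that class lie at 17.2 CPM.

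The make-up of the germ cells also differed between the libraries. The double-low class was 41.1% of control germ cells (37.4 to 44.8) and 16.2% of vKO germ cells (11.7 to 21.7). The Gfra1 class was 38.1% and 75.4%, the Kit class 20.3% and 1.75%, and the double-high class 0.559% and 6.58%. If each vKO class had held the control level of its class, *Rin2* would have stood at 0.807 of the control level and *Stox2* at 0.867. The observed vKO counts were 0.304 (0.257 to 0.356) and 0.298 (0.264 to 0.336) of those expected from the make-up. Among singlets the make-up gave 0.733 and 0.790 of the control level, and the observed counts were 0.178 and 0.264 of those expected.

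Finer steps of *Gfra1* gave the same picture. In control singlets *Rin2* rose from 44.5 CPM in cells with 4 or more *Gfra1* UMIs per 10000 to 67.7 at 1 to 2 and 98.7 at over 0 to 0.5, and was 79.3 in cells without a *Gfra1* UMI, which include the Kit class. *Stox2* went from 62.4 CPM over 135 to 194 and then 123. In vKO singlets *Rin2* lay between 5.97 and 9.16 CPM in 5 of the 6 steps, and the remaining step held 8 UMIs in 6 cells. *Stox2* in vKO lay between 8.95 and 29.3 CPM, and the intervals of these lowest and highest steps overlapped (1.85 to 26.2 and 23.3 to 36.3). *Sox3* was lower in vKO than in control at 1 to 2 *Gfra1* UMIs per 10000 (4.34 against 25.4 CPM) but not in cells with 4 or more (9.64 against 7.64 CPM, with overlapping intervals).

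**Figure D2:**
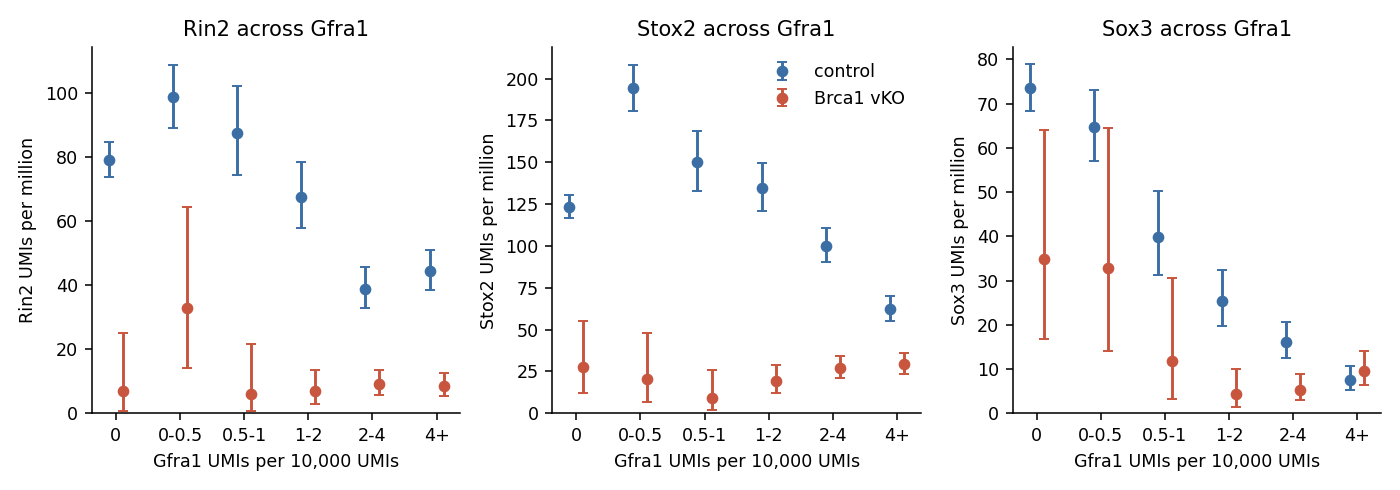
CPM of *Rin2*, *Stox2* and *Sox3* in singlet germ cells, in 6 steps of *Gfra1* UMIs per 10000 UMIs, for the control and *Brca1* vKO library, with 95% Poisson intervals. The control levels of *Rin2* and *Stox2* rise toward low *Gfra1* to 98.7 and 194 CPM, and the vKO levels of both lie below the control in every step.

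Against the other markers the control pattern was graded. With *Kit*, *Rin2* fell from 104 CPM in control singlets without a *Kit* UMI to 77.1 at over 0 to 0.5 per 10000, 36.2 at 0.5 to 1 and 4.28 at 1 to 2. *Stox2* went from 166 over 140 and 82.6 to 32.4 CPM. With *Ret*, *Rin2* was highest at low positive levels, 107 CPM at over 0 to 0.5 per 10000, against 38.4 CPM without a *Ret* UMI and 45.0 at 2 or more. With *Sox3*, *Rin2* had 33.9 CPM in control singlets without a *Sox3* UMI and 116 CPM in those with 1 or more per 10000. *Stox2* had 79.5 and 170 CPM in these cells. The vKO singlets without a *Sox3* UMI had 7.90 CPM of *Rin2* (46 UMIs in 154 cells) and 22.5 of *Stox2* (131 UMIs), so that both genes were also lower than in control cells that lacked *Sox3* UMIs.

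The members were also read in double-low cells with a *Sox3* UMI, of which the vKO library held few. These values come from the same UMIs by which the members were selected, so they describe that contrast and do not test it. Cells with a *Sox3* UMI were not matched in their *Sox3* level. There were 6 such vKO singlets, with 8 *Rin2* UMIs (39.0 CPM, 16.8 to 76.8) and 6 *Stox2* UMIs (29.2 CPM, 10.7 to 63.6). The 177 control singlets of this kind had 147 CPM of *Rin2* (139 to 155) and 223 of *Stox2* (213 to 234). The ratios were 0.265 (0.114 to 0.524) and 0.131 (0.0480 to 0.285). With the doublet-like cells, 214 control and 9 vKO cells gave 0.509 (0.340 to 0.734) and 0.271 (0.171 to 0.407). In the Gfra1 class without a *Sox3* UMI, where counts were larger, the singlet ratios were 0.302 (0.209 to 0.427) for *Rin2* and 0.348 (0.280 to 0.429) for *Stox2*. With the doublet-like cells they were 0.454 (0.346 to 0.590) and 0.360 (0.298 to 0.433).

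Cell by cell, the members were unevenly spread in the control and went together. The lowest control germ cell had 0 *Rin2* UMIs, the median 1 and the highest 45, and the 10% of cells richest in *Rin2* held 56.2% of all its UMIs. For *Stox2* the median was 2 and the highest 91. In vKO both medians were 0, and the highest values, 14 and 13, came from 1 doublet-like cell. Among vKO singlets the highest cells had 7 and 12. With each cell thinned to 10000 UMIs, the variance of *Rin2* was 2.42 times its mean in control and 0.957 times in vKO, where 1 is the value of counting noise alone. For *Stox2* these values were 3.40 and 1.75, above counting noise in both libraries. The means were 0.626 and 0.158 UMIs for *Rin2*, and 1.15 and 0.289 for *Stox2*. At the same relative spread this ratio falls toward 1 as the mean falls, so it does not compare the unevenness of the libraries.

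In thinned cells a *Rin2* UMI was found in 31.6% of control (28.2 to 35.1) and 14.9% of vKO germ cells (10.6 to 20.2), and a *Stox2* UMI in 42.2% (38.5 to 45.9) and 19.3% (14.4 to 25.0). Both UMIs together occurred in 20.5% of control cells (17.6 to 23.7), while the product of the single shares is 13.3%. In vKO they occurred in 3.51% (1.53 to 6.80), and the product is 2.88%. Among control Kit class singlets, a germ class of the same library in which *Rin2* was low, 3.28% of cells had a *Rin2* UMI (0.9004 to 8.18), and among vKO singlets 9.69% (5.94 to 14.7), with median depths of 51507.5 and 35768 UMIs before thinning. The share with a *Rin2* UMI was 57.7% in control and 52.7% in vKO Sertoli-like cells, and the median of Sertoli, stromal and myoid markers was 1.75 UMIs per 10000 in vKO singlets of the Gfra1 and double-low classes, against 1.09 and 0.924 in control cells with and without both members high (defined next). The part of somatic RNA in the remaining vKO counts was not tested. Across the 716 control germ cells the thinned counts of the members had r = 0.433 (Spearman's rho = 0.387), and across the 228 vKO cells r = 0.0251 (rho = 0.0400), as descriptions of cells that share a library. Among control singlets r was 0.481 in the double-low class and 0.236 (rho = 0.150) in the Gfra1 class. In vKO singlets of the Gfra1 class it was -0.0521, and the lower counts of that library also limit r. In the 25 vKO double-low singlets r was 0.676, with 2 cells holding a UMI of each gene, 2 a *Rin2* UMI and 4 a *Stox2* UMI. Between *Rin2* and *Sox3* r was 0.0649 in all control singlets and 0.00959 in those of the double-low class. For *Stox2* and *Sox3* it was 0.0655 and 0.0459.

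Cells high in both members were then counted, as those with at least 1 UMI of each per 10000, a limit set with the counts in view. The control library held 101 of them among 716 germ cells (14.1%), 86 in the double-low class. The vKO library held 2 among 228 (0.877%, 0.106 to 3.13), and both were doublet-like. Among singlets the counts were 93 of 592 in control (15.7%, 12.9 to 18.9) and 0 of 196 in vKO, which allows a share of up to 1.53% at 3 counts of the total, the rule used for a count of 0 (Clopper-Pearson limit 1.86%). Within the double-low class they were 80 of 229 control singlets (34.9%, 28.8 to 41.5) and 0 of 25 vKO singlets, which allows up to 12.0% by the same rule (Clopper-Pearson limit 13.7%). Within the Gfra1 class they were 13 of 237 (5.49%, 2.95 to 9.20) and 0 of 152, which allows up to 1.97% (Clopper-Pearson limit 2.40%). Cells high in both members were thus not detected among vKO singlets at this depth, and in the double-low class the upper limit is wide. The count is taken from the same UMIs by which the members were selected. It therefore repeats that contrast and does not test whether a state of cells is missing.

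Of 14 vKO singlets that were high in either gene, 13 were high in *Stox2* and 1 in *Rin2*. That 1 cell, in the double-low class, had 7 *Rin2*, 3 *Stox2*, 4 *Sox3*, 1 *Gfra1* and 1 *Kit* UMI among 53612. Among the 13 *Stox2*-high cells, 12 were in the Gfra1 class, and together they had 365 CPM of *Gfra1* and 11.1 of *Sox3*. The 191 *Stox2*-high singlets of the control had 122 CPM of *Gfra1* and 57.0 of *Sox3*, and 110 of them were double-low. The 182 vKO singlets high in neither gene had 347 CPM of *Gfra1* and 8.47 of *Sox3*. A high *Gfra1* level was thus not particular to the *Stox2*-high vKO cells. Below the limit *Stox2* was more widespread, with a UMI in 76 of 196 vKO singlets (38.8%) and at most 12 UMIs in a cell.

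**Figure D3:**
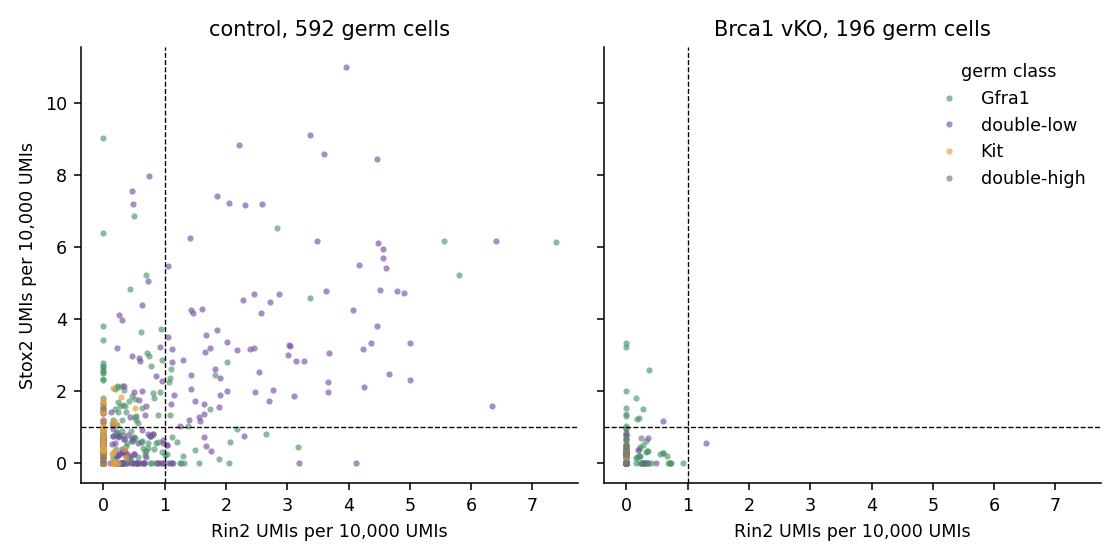
*Rin2* (horizontal) and *Stox2* (vertical) UMIs per 10000 UMIs in each singlet germ cell of the control (left) and *Brca1* vKO library (right), coloured by class, with dashed lines at 1 per 10000. The upper right field holds 93 control cells, mostly double-low, and 0 vKO cells.

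The control cells high in both members were compared with the other 373 control singlets of the Gfra1 and double-low classes. Most progenitor genes were higher in them, and a few genes of stem cells and of differentiation were lower. Of the 93 cells 80 were double-low and 13 in the Gfra1 class, and the comparison was not made within a class. Of 6 progenitor genes, 4 were at least 2-fold higher, where 0.462% of 12773 genes were. *Neurog3*, a transcription factor of progenitors, had 18.1 against 1.72 CPM. *Sox3* had 78.3 against 29.7 CPM, a ratio of 2.64 (2.30 to 3.03). *Rarg*, the retinoic acid receptor gamma through which progenitors respond to retinoic acid, had 35.9 against 8.44 CPM. *Upp1*, a uridine phosphorylase, had 80.9 against 24.4 CPM. Control double-low singlets as a whole had 9.38 (*Neurog3*), 68.4 (*Sox3*), 23.7 (*Rarg*) and 55.1 CPM (*Upp1*). The median of the list was 1.21 on the log2 scale, beside -0.03 over all genes.

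Of 23 tested genes of undifferentiated spermatogonia, 4 were at least 2-fold lower in these cells, 2 at least 2-fold higher and 17 neither, where 0.423% of all genes were lower. *Gfra1*, which helped to define the classes, had 63.0 against 262 CPM. *Lhx1*, a homeobox gene of GDNF-responsive stem cells, had 2.15 against 28.3 CPM. *Foxc2* had 8.17 against 35.8 CPM, and *Shisa6* 3.01 against 17.6. Control double-low singlets as a whole had 2.79 CPM of *Lhx1*, 6.79 of *Foxc2* and 3.49 of *Shisa6*. These low levels were thus shared by the class and not particular to cells high in both members. *Utf1* was higher, at 41.3 against 11.9 CPM, as was *Cxcl12*, at 16.6 against 1.72. *Zbtb16*, which encodes PLZF, stood at 493 against 290 CPM, so that the cells kept this marker of undifferentiated spermatogonia. Among 14 differentiation genes, 2 were at least 2-fold lower and 0 at least 2-fold higher, with a median of -0.28 on the log2 scale. The 2 were *Stra8*, induced by retinoic acid, with 27.7 against 132 CPM, and the cyclin *Ccnd2*, with 71.2 against 244. Some others were higher by less than 2-fold, such as *Sohlh1* at 254 against 161 CPM. Control double-low singlets as a whole had 144 CPM of *Stra8* and 110 of *Ccnd2*, and control Gfra1 class singlets 76.0 and 293. *Ccnd2* was thus higher in the Gfra1 class than in the double-low class. *Kit*, also part of the class rule, had 5.38 against 15.5 CPM. Of 15 S phase and 15 G2/M genes 0 differed by 2-fold, with medians of -0.49 and -0.44 on the log2 scale. Of 10 stress genes 1 was at least 2-fold higher, *Hspa1a*, at 22.6 against 4.49 CPM. Of 5 red blood cell genes 4 were lower, for example *Hba-a1* at 28.4 against 319 CPM. The median of the list per cell differed less, at 0.933 against 1.25 UMIs per 10000, and the part of haemoglobin RNA taken up by cells was not tested.

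The genes most enriched in these cells, other than the members, were led by *Slc24a3*, a sodium-calcium exchanger gene, with 80.9 against 10.8 CPM. The estrogen receptor gene *Esr1* had 96.8 against 15.8 CPM. *Epb41l4a* had 108 against 19.6 CPM and *Grm8*, a glutamate receptor gene, 78.5 against 14.8. *Cdk6*, the cyclin D-dependent kinase, had 99.4 against 23.6 CPM. *Sntg2*, *Onecut2*, Gm16222 and *Thsd4* were also in the list, at 28.4 to 143 CPM in these cells. In vKO singlets of the Gfra1 class *Esr1* had 2.22 CPM, against 15.8 in control cells of that class, and *Thsd4* had 12.0 against 43.3. With *Grm8* these were the 3 of the 10 listed genes at least 2-fold lower there, while *Onecut2* had 2.22 CPM in vKO and 2.76 in control. This set of cells and its list were chosen after the values were seen.

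By the rule written for named genes, Gfra1 class control cells with a member UMI after thinning (151 cells) were also compared with those without one (122 cells). The list was led by *Igfbp7*, *Slc4a4* and *Acta2*, the last a marker of myoid cells, used in the doublet rule, at 69.5 against 18.5 CPM. Without the doublet-like cells 5 of the 10 genes stayed in the list, *Slc4a4*, *Ankrd36*, *Asb18*, *Grm8* and *Otoa*, and *Igfbp7*, *Acta2*, *Fam155a*, *Sparcl1* and *Rhoj* left it. *Slc4a4*, a bicarbonate transporter gene, had 35.9 against 5.38 CPM in these singlets, and *Grm8* had 27.2 against 5.18. Between the libraries, Gfra1 class singlets had 17.0 CPM of *Grm8* in control and 2.56 in vKO, and 15.2 and 1.37 CPM of *Asb18*. *Slc4a4* had 21.8 and 10.9 CPM.

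The members also varied with the cell cycle genes in the control. When control singlets were divided into 3 bins of like size by the 15 S phase genes, *Rin2* had 147 CPM in the lowest bin (139 to 156), 48.5 in the middle and 21.96 in the highest (19.1 to 25.2). *Stox2* had 214, 99.6 and 64.4 CPM. The bins pool the germ classes, with 47.0%, 39.8% and 29.3% double-low cells, and the part of class make-up was not tested. With the 15 G2/M genes *Rin2* had 119, 35.0 and 62.8 CPM, so that the lowest bin again had the most. Cells with under 15 UMIs of the S phase list and under 10 of the G2/M list per 10000, limits set after the data were seen, made up 14.7% of control singlets (87 of 592). All 122 control Kit class singlets lay outside this set. In the 49 double-low cells of the set *Rin2* reached 238 CPM (218 to 260) and *Stox2* 352 CPM (327 to 379), and 32 of the 49 (65.3%) were high in both members. The other 180 double-low control singlets had 109 and 176 CPM. The 37 Gfra1 class cells low in cycle genes had 81.4 CPM of *Rin2* and 83.6 of *Stox2*, and 3 of them were high in both. The other 200 Gfra1 class singlets had 44.2 and 95.3 CPM, so that in this class *Rin2* but not *Stox2* was higher in cells low in cycle genes.

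In the vKO library 22 of 196 singlets were low in cycle genes (11.2%, 7.17 to 16.5), an interval that overlapped that of the control (11.9 to 17.8). Of these 22 cells, 20 were in the Gfra1 class and 1 was double-low. They had 8 *Rin2* UMIs (12.3 CPM, 5.32 to 24.3) and 28 *Stox2* UMIs (43.1 CPM, 28.6 to 62.3). In the vKO bins of the S phase list *Rin2* had 16.1, 5.27 and 7.06 CPM, and *Stox2* 36.2, 21.8 and 20.4, each lower than in the control bin. Over all germ cells the S phase list had a median of 19.6 UMIs per 10000 in control and 22.5 in vKO.

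**Figure D4:**
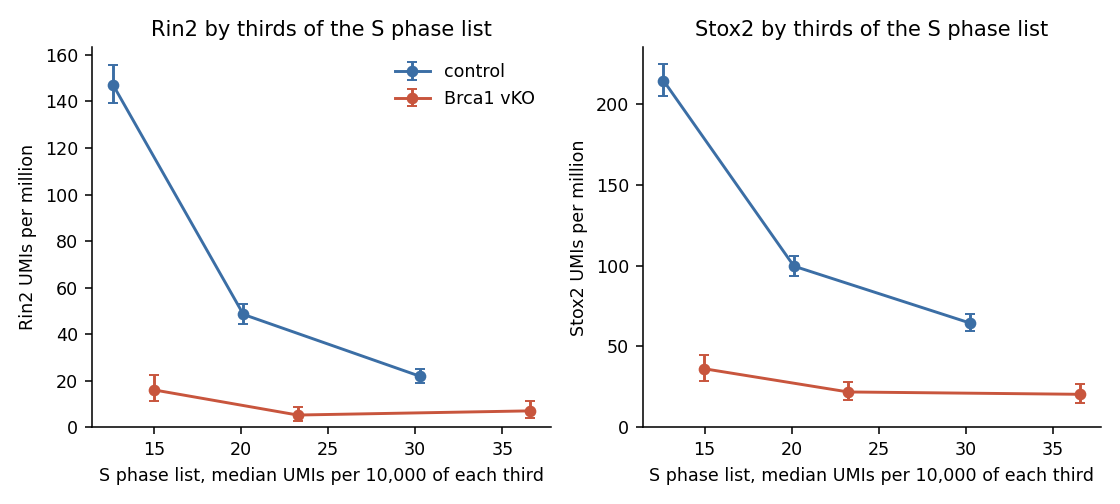
CPM of *Rin2* (left) and *Stox2* (right) in 3 bins of the singlet germ cells of each library, placed at the median of 15 S phase genes (UMIs per 10000), with 95% Poisson intervals. In the control the levels fall from 147 to 21.96 CPM and from 214 to 64.4 CPM, and the vKO points lie below them. The bins pool the germ classes.

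The handling stress genes and the depth of cells also moved with the members or the libraries. In control singlets *Rin2* rose over 3 bins of the stress list, from 37.9 over 76.8 to 93.4 CPM, and *Stox2* from 70.5 over 132 to 164. These bins held 33.5%, 39.1% and 43.4% double-low cells. The vKO library, in which the list was higher, had 10.9, 8.10 and 8.12 CPM of *Rin2*, each lower than in the control bin. Over 3 bins of depth, control *Rin2* was 67.3, 72.4 and 69.4 CPM. Control *Stox2* was higher in deeper cells, at 109 CPM (100.1 to 118), 115 and 134 (128 to 140), and the vKO germ cells were the shallower ones. With every germ cell thinned to 10000 UMIs the vKO to control ratio of *Stox2* was 0.251, beside 0.259 with all UMIs. In vKO singlets 3 of the 10 stress genes were at least 2-fold higher (*Jun*, *Junb* and *Ier2*), and 4 of the 5 red blood cell genes, the haemoglobin genes, at least 2-fold lower, for example *Hba-a1* at 12.0 CPM against 210 in control. Over all genes 0.931% were at least 2-fold higher and 0.663% lower. Over all germ cells the median of the red blood cell list per cell differed less than these sums, at 1.11 UMIs per 10000 in control and 0.367 in vKO. The part of stress and of free haemoglobin RNA in the member values was not tested.

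Other genes of the RIN2 pathway were also compared. Of 21 genes of RAB5 and related GTPases, their activators and their effectors, 20 could be compared in germ cell singlets. Of these, 0 were 2-fold lower or higher in vKO, where 0.663% of all genes were lower and 0.931% higher. At such shares a list of 20 genes would seldom hold a called gene, so that the 0 says little about this pathway. Their median log2 ratio on the scale of log2(CPM + 10) was 0.04, beside -0.04 over all genes. *Rab5a*, *Rab5b* and *Rab5c*, the RAB5 GTPases, had 109 and 119, 38.6 and 44.9, and 89.2 and 106 CPM in control and vKO. *Rabgef1*, a RAB5 activator, had 68.3 and 55.2 CPM. *Eea1*, a RAB5 effector that tethers endosomes, had 130 and 85.5 CPM, and *Gapvd1*, another RAB5 activator, 35.3 and 22.6 CPM. *Rab31* was higher in vKO, at 13.7 and 25.9 CPM. *Rin3*, of the same family as *Rin2*, was low in both libraries at 2.51 and 2.96 CPM, and *Rin1* had 8 and 4 UMIs. With 10 CPM added, a gene as low as *Rin3* could not be called 2-fold lower. *Stox1*, the other storkhead-box gene, had 17.7 and 11.6 CPM, a log2 ratio of -0.36 on the scale of log2(CPM + 10). On the same scale the log2 ratio was -0.38 within the Gfra1 class and -0.91 within the double-low class. In the double-low class *Stox1* had 142 UMIs (14.2 CPM) in control and 2 UMIs (2.86 CPM) in vKO. At such low levels the added 10 CPM makes the log2 ratio smaller in size than the CPM values alone would give. The 2 vKO UMIs are too few to settle its size.

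Among the lists of spermatogonial genes in singlets, 2 of 6 progenitor genes were at least 2-fold lower in vKO, beside 0.663% of all genes, *Sox3* (46.2 and 9.14 CPM) and *Upp1* (29.6 and 4.70 CPM). *Neurog3* had 137 UMIs in control and 4 in vKO. Of 25 genes of undifferentiated spermatogonia 0 were 2-fold lower and 5 at least 2-fold higher, beside 0.931% of all genes, *Id4*, *Pax7*, *Lhx1*, *Bcl6b* and *Shisa6*. Of 14 differentiation genes 5 were lower, among them *Stra8* (178 and 51.9 CPM), and 1 was higher, *Ccnd2* (179 and 583 CPM). The list values and the comparison of cells high in both members share the control cells and are not independent of each other.

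Protein-coding genes nearest to the members were also read. *Slc24a3*, which led the list of genes in cells high in both members, is the nearest before *Rin2*. It spans bases 145167754 to 145642166 of chromosome 2 on the same strand and ends 33048 bases before *Rin2*. In germ cell singlets it had 641 UMIs (23.4 CPM) in control and 34 UMIs (4.57 CPM) in vKO, a ratio of 0.196 (0.134 to 0.276). The next gene after *Rin2*, *Naa20*, had a ratio of 1.52 (1.35 to 1.72), and *Crnkl1* and *Cfap61* behind it 1.11 and 1.01. *Dtd1*, further before *Slc24a3*, had 0.777 (0.697 to 0.864), and *Scp2d1* had no UMIs in either library. Around *Stox2*, the ratios of *Irf2*, *Trappc11*, *Rwdd4a* and *Ing2* lay between 0.856 and 1.52, and *Enpp6* had 26 and 4 UMIs. *Slc24a3* was thus the only one of the neighbours named here at under 0.5 of the control level, while *Enpp6* and *Scp2d1* had too few UMIs to tell.

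In somatic cells the members showed no loss of the size seen in germ cells, apart from *Stox2* in a small class. Somatic classes were named from 4 markers each. Sertoli-like cells (1746 control and 2944 vKO) had 109 and 99.3 CPM of *Rin2*, with a vKO to control ratio of 0.907 (0.875 to 0.941). The level was 62.9 and 68.4 CPM in stromal-like cells (ratio 1.09, 0.993 to 1.19) and 37.3 and 47.8 CPM in myoid-like cells (ratio 1.28, 1.12 to 1.47). Macrophage-like cells had 101 and 134 CPM, endothelial-like cells 85.2 and 76.9, Leydig-like cells 74.6 and 48.3, and pericyte-like cells 35.2 and 35.8. The order of the control levels of *Rin2* from Sertoli-like to endothelial-like cells is not settled, since the interval of macrophage-like cells (82.6 to 123) covers both.

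*Stox2* was highest in endothelial-like cells, at 777 CPM in control (53 cells) and 526 in vKO (83 cells), a ratio of 0.677 (0.617 to 0.744). Thinning to 10000 UMIs, which gives each cell the same weight and left 35 and 60 cells, gave 417 and 343 CPM and a ratio of 0.823 (0.663 to 1.02). In stromal-like cells *Stox2* had 158 and 104 CPM (ratio 0.659, 0.618 to 0.701), and in myoid-like cells 86.5 and 78.3. In Sertoli-like cells it had 24.6 and 29.5 CPM (ratio 1.20, 1.11 to 1.29), the level being higher in vKO. Leydig-like cells had 33.6 and 39.7 CPM, and pericyte-like cells 81.5 and 90.6. In macrophage-like cells *Stox2* had 63 UMIs in 56 control cells (63.2 CPM) and 16 UMIs in 79 vKO cells (15.3 CPM), a ratio of 0.242 (0.131 to 0.425). That ratio was 0.427 when cells needed no minimum score to be named, so that its size depends on which cells are included. None of the 4 markers used for macrophage-like or endothelial-like cells were among their 10 leading genes, which were *Pf4*, *C1qa* and the like, and *Flt1*, *Cldn5*, *Pecam1* and the like. The neutrophil-like class had 6 control cells and was not compared.

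**Figure D5:**
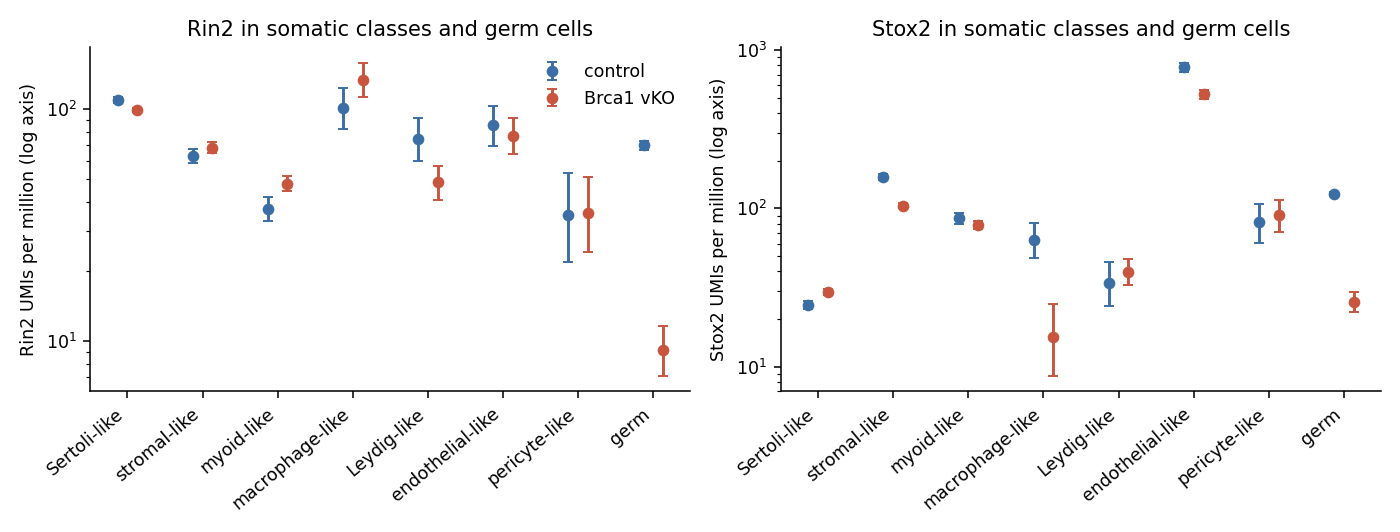
CPM on a log axis of *Rin2* (left) and *Stox2* (right) in 7 somatic classes and in singlet germ cells of the control and *Brca1* vKO library, with 95% Poisson intervals. The libraries separate widely in germ cells, at 70.0 and 9.14 CPM for *Rin2* and 123 and 25.7 CPM for *Stox2*. Their somatic points lie closer together, except for *Stox2* in macrophage-like cells, at 63.2 and 15.3 CPM.

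Across 20 sums of cells, made of each germ and somatic class with at least 20 cells per library, the members did not run in parallel, with r = 0.129 on log2(CPM + 10). As descriptions over sums that share libraries, the genes most like *Rin2* among 15064 were *Tapbp* (r = 0.826), *Ogt* (0.794), *B4galt1* (0.779), *Arl8a* (0.772) and *Gabarapl1* (0.764). *Ogt*, which encodes O-GlcNAc transferase, had 74.9 CPM in control and 44.2 in vKO germ cell singlets, and *Ly6e*, eighth in this list, had 12.3 and 21.1. The genes most like *Stox2* were *Tram2* (r = 0.875), *Fgd5* (0.874), *Fam13c* (0.869), *Abcg2* (0.858) and *S100a16* (0.839). Of these, *Fgd5* and *Abcg2* are known from endothelial cells, the class highest in *Stox2*. *Rin2* and *Stox2* were thus high in the same control germ cells but ranked far from each other over the cell types, at 3953 and 4487 of 15064.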

How the data were processed

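Testes of PD7 mice were dissociated and single cells were captured on the 10x Genomics platform, 1 library per genotype. The authors aligned the reads to mm10 and made the deposited counts of UMIs per gene and barcode with Cell Ranger 6.0.2. They are whole numbers for barcodes called as cells, before any normalization or filter. Strand and multi-mapping settings of the counting are not given in the sources used here. The tables held 120568700 UMIs (control) and 165062097 UMIs (*Brca1* vKO).

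Here, the study's cell limits were applied: 750 or more genes, and no more than 10% of UMIs from mitochondrial genes. Levels are summed UMIs divided by all UMIs of the same cells, per 1000000 (CPM). Ratios across all genes used log2(CPM + 10) for genes with at least 50 UMIs, and a gene was called at a change of 2-fold. Cells were thinned at random, with a fixed seed, to 10000 UMIs. Scrublet ran in scanpy 1.11.5, intervals came from scipy 1.17.1 under Python 3.11.15, and edgeR 4.0.16 gave TMM factors for an alternative. Doublet-like cells were kept in the main values and left out in an added set. Somatic classes took the highest mean standardized expression of 4 markers, at least 0.5 and 0.5 above the next. The ratio and interval code was tested on simulated data. Coordinates are those of a GENCODE annotation of GRCm38, promoters those of RefSeq, in which both genes were matched by symbol.

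The members, the gene lists and the rules were chosen with earlier results of these data known. Named genes were the members, *Gfra1*, *Ret*, *Sox3*, *Kit*, *Brca1*, *Ddx4* and *Dazl*, the 10 genes most like each member, the 10 genes most enriched in Gfra1 class cells with a member UMI, 3 protein-coding neighbours on each side, and the lists. Some of the genes chosen by these rules are not reported here. The list of cells high in both members was added after the data were seen. In all, 25 alternatives were planned and 2 added.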

Additional observations from a re-analysis of the deposited data

How the results depend on the processing

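Each genotype had 1 library, so no replicate could be left out. No paired analysis was possible because each group held 1 sample and no test was made. Of 96 recomputed values, 67 stayed within the 95% counting interval of the reported value (or within 1.5 times, for counts of genes), 29 moved outside it and 0 reversed direction. In germ cells the ratio of vKO to control ranged from 0.131 to 0.408 for *Rin2* and from 0.206 to 0.344 for *Stox2* over 15 alternatives each. The highest values came from a mitochondrial limit of 5%, which gave 0.408 and 0.344 and 0.232 for *Rin2* in the Gfra1 class. This limit kept 59 vKO germ cells, and without the doublet-like cells the 45 left gave 0.176 and 0.197. Leaving out Scrublet-marked cells gave 0.165 for *Rin2* in germ cells and 0.191 in the Gfra1 class. Leaving out cells with somatic markers gave 0.136 and 0.198 for *Rin2* and 0.206 for *Stox2* in germ cells. Leaving out both kinds, an alternative added after the data were seen, gave 0.131 and 0.209 in germ cells, 0.189 for *Rin2* in the Gfra1 class, 0.126 and 0.0807 in the double-low class, and 0.178 for *Rin2* relative to its make-up. In the Gfra1 class, thinning gave 0.397 for *Rin2*, and cells without a *Sox3* UMI gave 0.454 for *Rin2* and 0.360 for *Stox2*. The share of cells with a UMI depended on depth by construction. With all UMIs it was 56.1% (control) and 30.7% (vKO) for *Rin2* and 65.1% and 43.4% for *Stox2*, and at 5000 UMIs 19.8% and 8.33%, and 27.1% and 11.0%. Of the 10 genes most like *Stox2*, 6 stayed with a minimum of 10 UMIs and 5 with a pseudocount of 1 CPM. In somatic cells, *Stox2* moved to 0.823 in thinned endothelial-like cells and to 0.427 in macrophage-like cells named without a minimum score. Apart from the cases whose construction is named, the cause was not tested. The small number of cells limits the vKO values of the double-low (25 singlets), double-high (15) and Kit (4) classes.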
